A study of Sus scrofa with 6 samples.

Results

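The array carried 322 probes for pig mature miRNAs, and 3 of them are described here: both arms of miR-423 (miR-423-5p and miR-423-3p) and miR-1307. They were chosen by their probe names, and selected on the paced minus sham difference as well, since miR-423-3p and miR-1307 had read higher after pacing. The paced versus sham differences of these miRNAs are therefore given as a description, with no test. RNA came from the left atrium (LA) of 3 sham-control piglets and of 3 piglets of the PAF (paroxysmal atrial fibrillation) group, with 1 Cy3-labelled array per animal. The PAF animals, called paced below, had received burst pacing of the right atrium through a catheter and were killed about a day later. The sham animals were not paced. The methods state that a beta-blocker (esmolol) was given before pacing and that the pigs were Large White animals some months old, whereas the sample labels describe neonatal piglets. No genetic alteration was involved. The induced episodes were brief and ended by themselves, which limits the model to early changes.

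An miRNA hairpin is cut into a 5′ and a 3′ arm, and either strand can be loaded into Argonaute, where its seed (bases 2 to 8) pairs with target mRNAs. Both strands of the miR-423 hairpin are recovered from many tissues. Its 5′ arm is known as a plasma marker of heart failure, and the heart is thought to contribute to it. MiR-1307 is found in many cell types. In the RefSeq gene table of the Sscrofa11.1 assembly, MIR423 lies within NSRP1, the gene of a nuclear speckle splicing factor. MIR1307 lies within USMG5, the gene of a small subunit of mitochondrial ATP synthase. The genome build behind the probes is not given in the sources used here, so no coordinates are printed.

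The target sequences listed with the probes are shown with the seed in capitals, since the seed sets which mRNAs a miRNA can recognise.
miR-423-5p: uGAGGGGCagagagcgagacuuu
miR-423-3p: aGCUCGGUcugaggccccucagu
miR-1307: aCUCGGCGuggcgucggucgug
No other probe of the array has the seed of any of the 3 (0 for each), so each stood alone in its seed family. The seeds of miR-423-5p and miR-1307 hold 6 G or C bases of 7 positions each, and that of miR-423-3p holds 5.

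All 3 sequences are rich in G and C, although miR-423-5p only moderately so. MiR-1307 has 16 G or C bases of 22 (72.7%, percentile 98 among the 322 probes), miR-423-3p has 15 of 23 (65.2%, percentile 92.2) and miR-423-5p has 13 of 23 (56.5%, percentile 75.5). The median over all probes was 47.6%. The longest run that miR-423-3p and miR-1307 have in common is UCGGUC, at positions 4 to 9 of the former and 14 to 19 of the latter, and these were the only 2 probes with it (0.621%). MiR-423-5p shares no run longer than 3 bases with miR-1307.

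The arms of miR-423 are partly complementary, as strands of one hairpin stem are. The longest run of miR-423-5p whose reverse complement occurs in miR-423-3p is 8 bases long, and it is capitalised here in both arms.
miR-423-5p: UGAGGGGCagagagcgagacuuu
miR-423-3p: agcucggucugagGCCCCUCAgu
It covers positions 1 to 8 of miR-423-5p, which include the whole seed, and positions 14 to 21 of miR-423-3p, outside its seed. Neither run is found in another probe (1 probe each, 0.311%). Only these runs were compared, and the stem itself was not folded.

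Each probe was printed as 9 repeat spots. The background was read from 786 empty spots per array, whose median lay between 64.7 and 214 scanner units on the sham arrays and between 242.5 and 399 on the paced arrays, with no overlap. A probe counted as well above background if its repeat spots had a median over the empty-spot median plus 3 SD of these empty spots, and the 104 probes that met this on all 6 arrays are called detected below. Of the cardiac muscle miRNAs miR-1, miR-133a-3p, miR-133b, miR-208b and miR-499-5p, 4 of 5 met this on every array and miR-208b on 5 arrays. The liver miRNA miR-122 and the brain miRNAs miR-124a and miR-9 met it on none (0 of 6). Normalized log2 signals of the groups were compared with limma. Of the 322 probes, 0 (0%) passed an adjusted p of 0.05 in limma, the lowest adjusted p being 0.148. At an unadjusted p of 0.05, 34 probes (10.6%) passed, and the methods' t-test on the same values gave 39 at that threshold and 0 after adjustment. As each array stood for 1 animal and 3 animals made up a group, the SDs given are spreads between few animals. The SE of a probe's difference is that of limma, which draws each probe's variance toward a value common to all probes. It therefore does not reflect the animals of that probe alone. In whole tissue, fewer cells of a type and less of a miRNA per cell cannot be told apart.

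MiR-423-5p, the heart failure marker, was far above background and did not separate the groups. Its scanner median was 2181, 1445 and 1306 units in sham animals 1, 2 and 3, and 1330, 1567 and 1494 units in paced animals 1, 2 and 3, so it was well above background everywhere. The normalized log2 signal was 10.45, 10.71 and 10.52 in the sham animals and 10.66, 10.41 and 10.53 in the paced animals. The highest and the lowest value belonged to sham replicate 2 and paced replicate 2, and the ranges overlapped almost entirely. The means were 10.56 ± 0.13 (SD, n = 3) and 10.53 ± 0.13 (SD, n = 3), and the difference of -0.03 (SE 0.10) was smaller than the spread between animals. In the processed values deposited by the authors the means were 1402 ± 120 and 1339 ± 165 intensity units (SD, n = 3 in each group).

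MiR-423-3p, the other strand of the same hairpin, lay near the background. Its scanner median was 278, 101 and 165 units in sham animals 1, 2 and 3, and 395, 395 and 342 units in paced animals 1, 2 and 3, close to the empty-spot medians of 214, 64.7 and 117 units and of 399, 242.5 and 261 units. Set against the empty spots of the whole array, it was well above background on only 1 sham and 1 paced array, replicate 2 in both groups. The normalized log2 signal was 7.42, 7.45 and 7.40 in the sham animals and 7.66, 7.75 and 7.69 in the paced animals. Every paced value lay above every sham value. That held for 22 of all 322 probes (6.83%), of which 0 were among the 104 detected probes, and nothing is read from the count because this contrast chose the miRNA. The sham mean was 7.42 ± 0.03 and the paced mean 7.70 ± 0.05 (SD, n = 3), 0.28 apart (SE 0.06), or 1.21-fold on this scale. The offset of 50 added in the background correction compresses differences of dim probes. In the processed values the means were 57.5 ± 3.11 and 92.4 ± 8.44 intensity units, again without overlap. The empty spots too were brighter on every paced array, and their part in this difference was not tested.

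MiR-1307 was detected, as defined above, and read higher in most paced animals. Its scanner median was 822, 434 and 640 units in sham animals 1, 2 and 3, and 1131, 1011 and 996 units in paced animals 1, 2 and 3. The normalized log2 signal was 9.06, 9.19 and 9.57 in the sham animals and 10.31, 9.50 and 9.95 in the paced animals. Paced replicate 2 lay just under sham replicate 3, and in 8 of the 9 pairs of a paced and a sham animal the paced value was the higher. The sham mean of 9.27 ± 0.27 and the paced mean of 9.92 ± 0.40 (SD, n = 3) were 0.65 apart (SE 0.22), or 1.57-fold. This was the highest difference among the 104 detected probes with all 6 animals, on the contrast that chose miR-1307. The next were miR-148a-3p at 0.46 (SE 0.25) and miR-21, a miRNA tied to fibrosis, at 0.37 (SE 0.28). Without paced replicate 1 the miR-1307 difference was 0.46. In that animal miR-148a-3p was at 9.85, below paced replicates 2 and 3 (10.70 and 10.80). Sham animals 1, 2 and 3 were at 10.15, 9.84 and 9.97. On these values the miR-148a-3p difference without that animal is larger than that of miR-1307. The top rank of miR-1307 thus depends on paced replicate 1, and the other ranks were not recomputed. In the processed values miR-1307 was at 392, 427 and 602 intensity units in the sham animals and at 1161, 650 and 788 in the paced animals, without overlap, and the ratio of the means was 1.83.

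**Figure D1:**
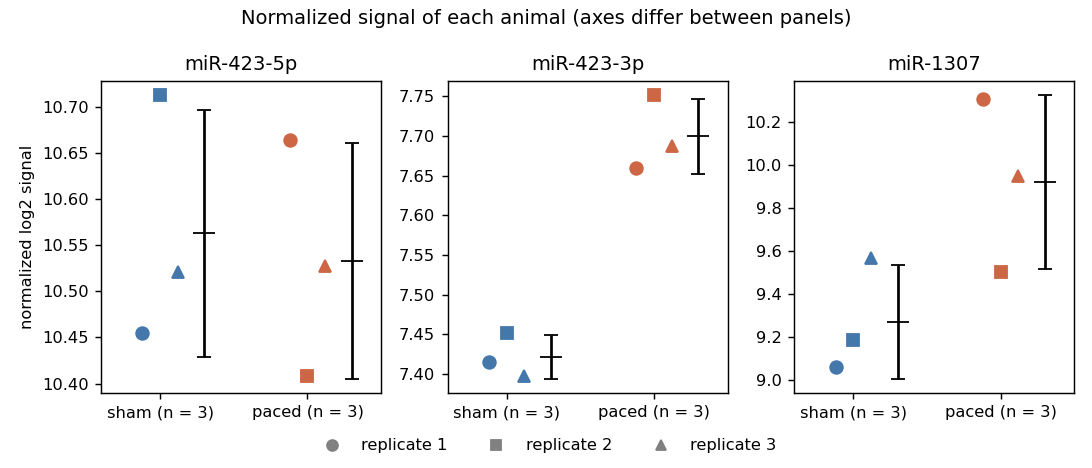
Normalized log2 signal of miR-423-5p, miR-423-3p and miR-1307 in each animal, with the replicate number as the symbol and the group mean ± SD (n = 3) as the bar; the vertical axes differ. The groups overlap for miR-423-5p and are apart by 0.28 on average for miR-423-3p. They overlap slightly for miR-1307, where paced replicate 2 (9.50) lies under sham replicate 3 (9.57).

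The 3 miRNAs also differed in how much they varied between animals of a group. The pooled within-group SD was 0.04 for miR-423-3p, at percentile 3.26 of all 322 probes, and 0.34 for miR-1307, at percentile 95.5. For miR-423-5p it was 0.13, at percentile 54.5. The offset compresses the spread of dim probes, so the small SD of miR-423-3p is not comparable with that of a bright probe. Its sham mean lay at percentile 51.1 of all 322 probes, so many dimmer probes had the same offset. The source of its small SD was not tested.

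The repeat spots show how firmly each value stands. Over the 9 spots of an array the coefficient of variation was 4.17% to 10.2% for miR-423-5p and 2.86% to 14.1% for miR-1307. For miR-423-3p it was 6.16% to 10.2% on 5 arrays and 16.6% in sham replicate 1, where single spots ran from 181 to 296 units. The empty spots near them on that array also differed by position, from 101 units beside the spots with the lowest row numbers to 213 beside the middle ones.

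To account for such gradients, each spot was set against its 15 nearest empty spots, a measure added once the data had been seen. MiR-423-3p then stood 80.8, 36.2 and 43.8 scanner units above them in sham animals 1, 2 and 3. In paced animals 1, 2 and 3 it stood at -7.91, 128 and 63.6 units. The spots in paced replicate 1 were thus no brighter than the empty spots beside them, although the normalized value of this animal (7.66) lay above all sham values. By this measure the probe was well above background on 3 sham and 2 paced arrays, and the ranges of the groups overlapped. When the nearest empty spots were used in the background correction, the normalized values were 7.51, 7.33 and 7.31 in the sham animals and 7.49, 7.66 and 7.55 in the paced animals. The difference was then 0.18, and paced replicate 1 lay under sham replicate 1.

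For miR-1307 the same measure gave 608, 370 and 511 units in sham animals 1, 2 and 3 and 703, 724 and 713 units in paced animals 1, 2 and 3. Every paced array exceeded every sham array. The SD between the paced arrays was only 10.3 units around a mean of 713, while their normalized log2 values spread by 0.40 (SD). For miR-423-5p the values were 1971, 1382 and 1188 units in the sham and 943, 1272 and 1220 units in the paced animals, with overlap. These signals are not adjusted for the brightness of the arrays.

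**Figure D2:**
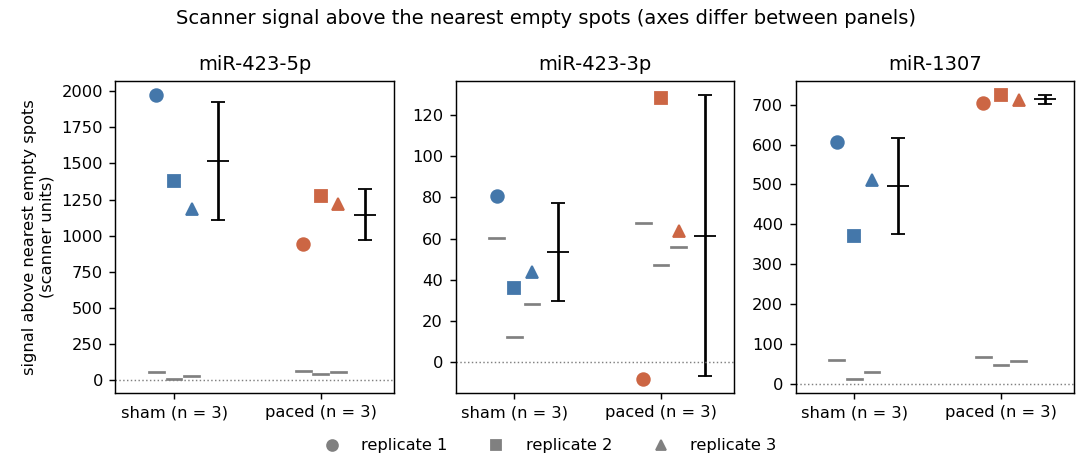
Median scanner signal of the 9 repeat spots above the 15 nearest empty spots, per array; grey ticks mark 3 SD of empty-spot signals around those of their nearest neighbours on that array, black bars the group mean ± SD (n = 3), and the vertical axes differ. MiR-423-3p in paced replicate 1 lies at -7.91 units, whereas miR-1307 lies between 703 and 724 units on the paced arrays and between 370 and 608 units on the sham arrays.

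The repeat spots lie in 3 zones of the array, 3 spots in each, which are technical repeats of the same hybridization. In the order of their row numbers the difference of miR-1307 was 0.80, 0.63 and 0.52 in these zones, and that of miR-423-5p was -0.02, -0.02 and -0.05. For miR-423-3p it was 0.46, 0.35 and 0.01. The groups did not overlap in the first and the middle zone, whereas in the last zone sham replicate 1 (7.56) exceeded all paced animals (7.34, 7.51 and 7.52). Above the nearest empty spots, miR-423-3p in paced replicate 1 was at -17.5, 0.243 and -7.34 units in the 3 zones, so it stayed near the empty spots in each. What sets the difference between zones was not tested.

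**Figure D3:**
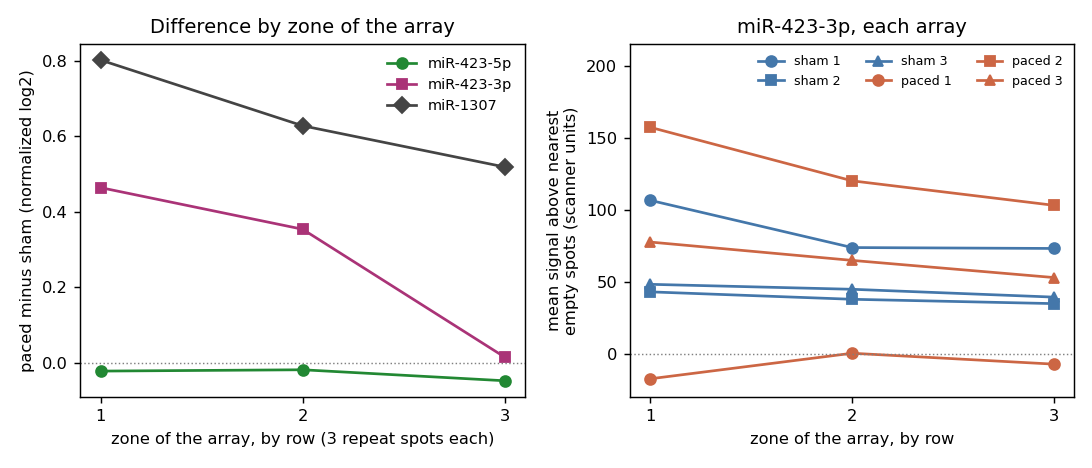
Left, paced minus sham difference in normalized log2 signal for each miRNA in the 3 zones of the array, numbered by row; right, the mean signal of miR-423-3p above the nearest empty spots in each zone and array (scanner units). The miR-423-3p difference goes from 0.46 in zone 1 to 0.01 in zone 3, and paced replicate 1 stays at or below 0.243 units.

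A ratio of scanner signals within an array is not changed by scaling whole arrays, though other normalizations can change it. It tells only of unequal change, since probes bind with different strength. The signal of miR-1307 above the nearest empty spots was 30.8%, 26.8% and 43.0% of that of miR-423-5p in sham animals 1, 2 and 3. Among the paced animals the share reached 74.6%, 56.9% and 58.4%, above every sham value. The sham mean was 33.5% ± 8.47 and the paced mean 63.3% ± 9.81 (SD, n = 3), 1.89 times as high in the latter. This ratio was formed after the values had been seen. It rests on the same contrast that chose miR-1307, so it adds no independent support.

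The same ratio for the arms of miR-423, miR-423-3p over miR-423-5p, was 4.10%, 2.62% and 3.69% in the sham animals and -0.839%, 10.1% and 5.22% in the paced animals. Paced replicate 1 was the lowest and paced replicates 2 and 3 the highest of the 6. In the normalized log2 values miR-423-5p minus miR-423-3p was 3.04, 3.26 and 3.12 in the sham and 3.00, 2.66 and 2.84 in the paced animals. All paced values were lower, with a difference of -0.31 (SE 0.12), to which paced replicate 1 contributed least. This SE comes from the within-group variances of the contrast alone, unlike the SEs of single probes from limma. This contrast contains the difference for which miR-423-3p was chosen and a probe well above background on only 2 of 6 arrays, so it adds no independent support. Nearly all of it lay in miR-423-3p (0.28), as miR-423-5p itself differed by only -0.03. The arms did not vary together over the 6 arrays (Pearson's r = -0.192).

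Across probes, Spearman's rho between G+C content and the paced minus sham difference was -0.0373 over the 322 probes, -0.0326 over the 104 detected probes, and 0.112 over the 322 probes in the processed values. These are correlations across probes of the same 6 arrays, which are not independent replicates. Of the 322 probes, 59 had a G+C content of at least 60%, among them miR-423-3p and miR-1307. Their median difference was 0.02, against 0.00 over all probes. Paced values lay above sham values without overlap for 7 of the 59 (11.9%, against 6.83% of all probes), one of them miR-423-3p. The share was nearly the same among the 70 probes with a G+C content under 40%, at 8 (11.4%). All 8 of these were well above background on no array, as were 3 of the 7 G+C-rich ones. Among probes well above background on no array, the shares were 8 of 38 (21.1%) under 40% and 3 of 27 (11.1%) at 60% and over. Of the G+C-rich probes, 17 were well above background on some but not all arrays. Of these, 4 (23.5%) lay higher without overlap, miR-423-3p among them, against 4 of the 75 such probes of any G+C content (5.33%). A difference between the groups can itself place a probe in this class, so nothing is read from these shares. The other 3 of those 4, named after their values were seen, were miR-4334-5p at 0.52, miR-4332 at 0.47 and miR-1249 at 0.24. At an unadjusted p of 0.05 in limma, 5 of the 59 G+C-rich probes were called higher, against 11 of all 322 probes (3.42%). Called lower were 2 of the 59, against 23 of the 322 (7.14%). As miR-423-3p and miR-1307 are among these 59 and were chosen on this contrast, these counts are not independent of the choice. Paced values lay below sham values without overlap for 3 of the 59, against 10.6% of all probes.

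Among the 15 detected G+C-rich probes, miR-1307 stood at the top, and 6 of the 15 had a difference above 0. That was the case for 41 of the 104 detected probes, a like share, and for 50.3% of all probes. The next was miR-1285 at 0.12 (SE 0.16), followed by miR-671-5p at 0.10 (SE 0.16). The lowest were miR-328 at -0.14 (SE 0.14), known as a regulator of the cardiac L-type calcium channel, and miR-7134-3p at -0.18 (SE 0.16). MiR-1343, richer in G and C than miR-1307 at 77.3%, was at -0.06 (SE 0.10). The count without overlap was 0 of 15 in both directions, against 0% higher and 4.81% lower among the 104 detected probes. The median difference was -0.04 for the 15 and -0.03 for the 104.

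**Figure D4:**
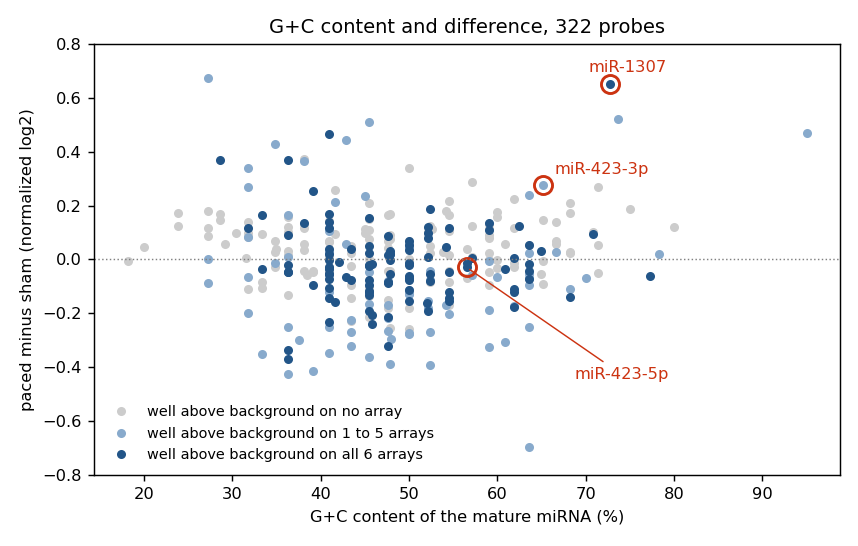
G+C content of the mature miRNA (%) against the paced minus sham difference in normalized log2 signal for 322 probes, shaded by the number of arrays on which the probe was well above background; red rings mark miR-423-5p, miR-423-3p and miR-1307. Spearman's rho over all points is -0.0373, and miR-1307 (72.7%, 0.65) lies above the other dark points.

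Since miR-423-5p is best known from plasma, the miRNAs reported in plasma or serum of patients with heart failure were looked at together. Of 16 such miRNAs, 14 have a probe and 10 were detected. Their median difference was -0.04, against 0.00 over all probes, with a range from -0.35 to 0.19. None passed an adjusted p of 0.05 in limma (0 of 14), and 0 were higher and 2 lower at an unadjusted p of 0.05, against 3.42% and 7.14% of all probes. Those 2 were the related miR-18a and miR-18b, the former at -0.35 (SE 0.14, adjusted p = 0.414 in limma) and the latter at -0.32 (SE 0.10, adjusted p = 0.309). MiR-22-3p, abundant in cardiac muscle, was at -0.19 (SE 0.10), also without overlap between the groups. Without overlap and lower were thus 3 of 14, against 10.6% of all probes, and higher were 0, against 6.83%.

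MiR-320, miR-92b-3p and miR-22-3p have been described together with miR-423-5p in heart failure plasma. MiR-320 was at 11.37 ± 0.06 in sham and 11.49 ± 0.35 in paced animals, a difference of 0.12 (SE 0.17). MiR-92b-3p was at 10.50 ± 0.20 and 10.55 ± 0.12 (SD, n = 3 in each group), a difference of 0.05 (SE 0.12). Both differences were within the spread between animals, like that of miR-423-5p. MiR-22-3p was at 13.20 ± 0.14 and 13.01 ± 0.13, lower without overlap as given above.

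The miRNAs whose values ran most like those of each member were sought by Pearson's r over the 6 arrays, among the detected probes. This r is a description over 6 arrays that share their normalization. For miR-423-5p they were miR-26a (r = 0.985), miR-92a (0.943) and miR-1306-5p (0.854). With each group's mean removed r was 0.992 for miR-26a, so the likeness was also seen within the groups. MiR-26a, an abundant miRNA linked to atrial potassium channels, also differed little between the groups, at 0.00 (SE 0.07). It was highest in sham replicate 2 and paced replicate 1, as miR-423-5p was.

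For miR-1307 the most similar were miR-21 (r = 0.747), miR-320 (0.744) and miR-193a-5p (0.685). Their differences of 0.37, 0.12 and 0.11 were all smaller than that of miR-1307. For miR-423-3p they were miR-148a-3p (0.663), miR-1307 (0.616) and miR-27a (0.573). With group means removed, miR-423-3p and miR-1307 ran opposite ways (r = -0.867), as paced replicate 1 was the highest of its group for miR-1307 and the lowest for miR-423-3p. The positive r over all arrays thus rests on the difference between groups for which both were chosen.

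Marker miRNAs of other cells were compared in the same way. Of the red blood cell miRNAs miR-451, miR-144 and miR-486, 1 of 3, miR-486, was lower in paced animals without overlap (10.6% of all probes were), and the log2 of their summed signal ranged from 13.60 to 14.08 in sham and from 13.04 to 13.61 in paced animals. MiR-144 was well above background on no array. For the 4 of 5 leukocyte miRNAs with a probe the ranges were 10.14 to 10.44 and 10.08 to 10.71, and miR-142-5p and miR-142-3p were well above background on none. Of the smooth muscle miRNAs, miR-143-3p was lower without overlap, at -0.32 (SE 0.10), and miR-145-5p was at -0.11 (SE 0.10). Of the endothelial arms of miR-126, miR-126-5p was higher without overlap, at 0.37 (SE 0.13), though well above background on no array, and miR-126-3p was at -0.02 (SE 0.10). Of the 3 fibroblast miRNAs, 0 were without overlap in either direction, where 6.83% of all probes were higher and 10.6% lower. The part of these cells in the values of miR-423 and miR-1307 was not tested.

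The difference of miR-1307 was above 0 under all 16 alternative settings, among them a replicate block that could not change it, and ranged from 0.46 without paced replicate 1 to 0.88 without paced replicate 2. That of miR-423-3p was also above 0 under all 16, but ranged from 0.18 with the nearest empty spots as background to 0.80 when each array was divided by its median over detected probes, a setting in which the median of all probes lay at 0.44. Relative to the median probe, miR-423-3p was then at 0.36, miR-1307 at 0.28 and miR-423-5p at -0.55. The difference of miR-423-5p lay between -0.28 without normalization between arrays, where the median probe was at 0.27, and 0.05 without sham replicate 2, and it was also above 0 without paced replicate 2 (0.04).

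**Figure D5:**
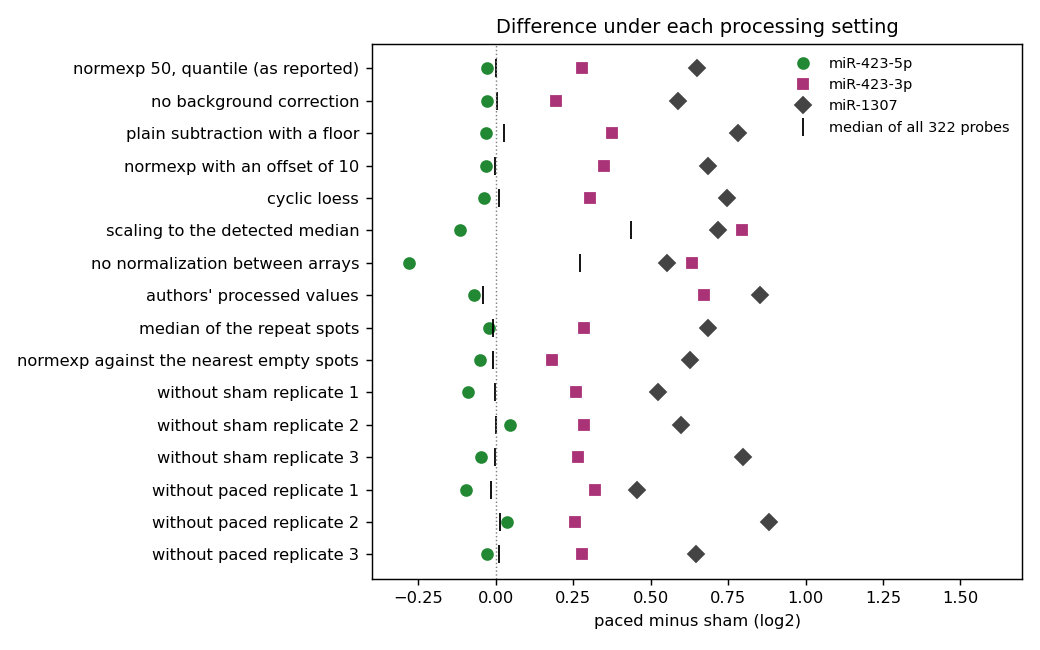
Paced minus sham difference (log2) of miR-423-5p, miR-423-3p and miR-1307 under each processing setting, with the median of all 322 probes as a vertical tick. MiR-1307 stays between 0.46 and 0.88 and miR-423-3p between 0.18 and 0.80, while miR-423-5p stays between -0.28 and 0.05.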

How the data were processed

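Total RNA of the LA was hybridized by a service provider to Cy3 pig miRNA arrays with 3968 spots, 2898 of them for miRNAs. The authors deposited, for each array, the median intensity of every spot in linear scanner units, neither background-subtracted nor normalized. They also deposited 1 processed intensity per probe and array, apparently background-subtracted and normalized, by methods not given in the sources used here. The number of arrays limits the precision.

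Scanner intensities were corrected with normexp (offset 50) in limma 3.58.1 (R 4.3.3) on all spots. The miRNA spots were then quantile-normalized, log2-transformed and averaged per probe, and fitted with lmFit and eBayes, with Benjamini-Hochberg adjustment. The code was tested on simulated data. Figures were drawn with matplotlib 3.10.9. Sequences are the target sequences in the array files.

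The members and lists were chosen with earlier results of these data known. Named miRNAs are the members, the plasma list, the 3 most similar probes, neighbours in the order of differences, and detected G+C-rich probes. Marker miRNAs of other cells are also named. Alternatives changed the background correction (none, offset 10, subtraction with a floor of 32), the normalization, the source of values (processed values, log2 with a pseudocount of 1), the spot summary, the test, a filter on dim probes, the G+C threshold, the replicate block and the animals used. The nearest empty spots were added after the data were examined.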

Additional observations from a re-analysis of the deposited data

How the results depend on the processing

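Each result was recomputed with 1 choice changed at a time, except in the processed values, which replace the correction, normalization and spot summary together. For miR-1307 (0.65) all 16 alternatives, of which the replicate block could not move any difference, stayed within 1 SD between animals. For miR-423-5p (-0.03) 15 of 16 did, the exception being no normalization between arrays (-0.28). The difference of miR-423-3p (0.28) moved by more than its small SD of 0.04 with no background correction (0.19), plain subtraction with a floor (0.37), an offset of 10 (0.35), scaling to the detected median (0.80), no normalization between arrays (0.63), the authors' processed values (0.67) and the nearest empty spots (0.18), and also without paced replicate 1 (0.32), the upper end of the range of 0.26 to 0.32 with 1 animal left out. The paced and sham values of miR-423-3p overlapped under plain subtraction, no normalization and the nearest empty spots. Those of miR-1307, which overlapped as reported, did not under cyclic loess, scaling, no normalization, the processed values or the median of the repeat spots. They also did not without sham replicate 3 or paced replicate 2. These animals formed the only overlapping pair, so leaving out either removes the overlap by construction and says nothing about separation. The arm contrast (-0.31) was -0.91 under scaling and under no normalization and -0.74 in the processed values. The median of the G+C-rich probes (0.02) was 0.57 under scaling, 0.41 with no normalization, 0.13 in the processed values and -0.051 after the filter on dim probes, and that of the heart failure plasma list (-0.04) was -0.22 with no normalization. The 0 probes at the adjusted threshold became 171 under scaling and 0 to 9 with 1 animal left out (9 without paced replicate 1 and 1 without paced replicate 2). The 34 at the unadjusted p became 181 under scaling, 15 with no normalization, 5 after the filter, and 18 to 69 with 1 animal left out (18 without paced replicate 3, 20 without sham replicate 2 and 69 without paced replicate 1). Under scaling, 176 of the 181 were higher in paced animals, against 11 of 34. In that setting limma gave miR-423-5p, miR-423-3p and miR-1307 the same SE (0.19), and with no normalization likewise (0.33). The spread of each of these probes thus did not set its SE there. The 22 probes higher without overlap became 180 under scaling, 12 with no normalization, 14 with the median of the repeat spots, 0 after the filter, and 31 to 56 with 1 animal left out. Groups with fewer animals separate more readily, so the rise with 1 animal left out says nothing about stability. The causes of the other changes were not tested. The deviations of animals with the same number correlated at r = 0.175, -0.0135 and 0.217, and 4 of 6 arrays correlated best with their own number, which leaves a weak pairing undecided. With the replicate block, 33 probes passed the unadjusted p and 0 the adjusted one. With 3 complete pairs the block leaves each difference as it is by construction (0.28 for miR-423-3p and 0.65 for miR-1307), so this says nothing about stability.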
